A study of Mus musculus with 18 samples.

Results

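The intestinal epithelium is a sheet of cells that is renewed from stem cells at the base of the crypts. The 32 genes described here mark its main cell classes: 9 pan-epithelial genes, 8 genes of absorptive enterocytes, 6 of mucus-secreting goblet cells, 4 stem cell or Wnt target genes, 2 of hormone-secreting enteroendocrine cells, 1 of tuft cells and 2 genes of the secreted Reg lectins. They were listed by symbol, all 32 were found, and each count table held 23238 distinct symbols. The libraries were not made from epithelium. They came from sorted stromal cells and lymphatic endothelial cells (LECs) of the mouse small intestine, so the question was which crypt or villus RNA the sorted cells carried and whether it differed between the groups.

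RNA was sequenced from 18 libraries of adult C57BL/6J mice. The cells were intestinal stromal cells (IntSCs) or LECs, which line lymph vessels such as the lacteals of the villi. They were taken from control mice with the genotype PDGFRb+-CreERT2-Tomato+ (WT, with 6 IntSC and 4 LEC libraries) and from mice with the alleles Lats1f/f and Lats2 f/f, floxed for deletion, on top of the same Cre and reporter (KO, with 5 IntSC and 3 LEC libraries). All groups therefore had the tamoxifen-inducible Cre under the Pdgfrb promoter and the tdTomato reporter that it switches on, and IntSCs were sorted by that reporter. The promoter is active in fibroblasts, pericytes and some smooth muscle cells, so the LECs were cells of a KO mouse that are not themselves the target of the Cre; Pdgfrb was at 215 to 1187 CPM (counts scaled to a common library size) in IntSC libraries and at 0.496 to 69.2 CPM in LEC libraries. Before sorting, the epithelium was loosened with EDTA and cells with EpCAM (CD326) on their surface were removed with magnetic beads from both fractions, together with leukocytes (CD45) and, for IntSCs, endothelial cells (CD31). The study's legends give mice per group, pooled over separate experiments, in ranges that match the library numbers of both cell types. No label ties a library to an animal or an experiment, so p-values are read as measuring the spread between libraries.

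Libraries held 5361250 to 10549233 reads. CPM values (reads of a gene per M reads of the library) use 1 set of library sizes, scaled with TMM factors over all 18 libraries. The protocol reads the 3′ end of each transcript, so CPM is not divided by gene length. A total of 3 reads, the limit that a count of 0 allows, is worth 0.284 to 0.560 CPM per library on totals without TMM scaling. Such limits cover counting error only. The labelled cell types held their own markers: 9 stromal genes summed to 7753 to 16519 CPM in IntSC libraries and 836 to 2437 in LEC libraries, and 10 LEC genes summed to 9333 to 15535 CPM in LEC libraries and 254 to 546 in IntSC libraries. Reads of Lats1 (0 to 30.1 CPM) and Lats2 (13.7 to 144 CPM) were present in KO as in WT libraries, and reads from the 3′ end do not check a deletion that may lie elsewhere in the gene.

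Of the 32 genes, 5 are also made by cells other than epithelium and are described apart. They are Krt8 and Krt18 (keratins of simple epithelia, also found in some muscle and stromal cells), Anpep (an aminopeptidase of the brush border and of fibroblasts), Axin2 (a negative regulator and target of Wnt signalling in many tissues) and Dclk1 (a kinase of tuft cells, also made by neurons and stromal cells). The other 27 are referred to as the epithelial genes.

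Promoters are shown for the 4 epithelial genes that passed a test in any comparison below and have an entry in the RefSeq promoter table of assembly GRCm38.p6, the assembly behind the mm10 build that the submitters name. Each runs from 250 bases before to 50 bases after the start site, 5′ to 3′ on the strand of the gene, which is the plus strand for all 4. Capitals mark matches, on either strand, to a TATA box, spelled TATAAA, and to a STAT element, spelled TTCNNNGAA.
Reg3b, chr6:78370635-78370934: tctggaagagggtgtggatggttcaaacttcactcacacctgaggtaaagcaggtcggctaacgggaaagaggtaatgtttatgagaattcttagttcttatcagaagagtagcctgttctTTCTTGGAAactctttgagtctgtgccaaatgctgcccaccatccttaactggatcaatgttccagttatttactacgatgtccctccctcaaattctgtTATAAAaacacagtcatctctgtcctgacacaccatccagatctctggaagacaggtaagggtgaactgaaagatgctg
Apoa1, chr9:46228380-46228679: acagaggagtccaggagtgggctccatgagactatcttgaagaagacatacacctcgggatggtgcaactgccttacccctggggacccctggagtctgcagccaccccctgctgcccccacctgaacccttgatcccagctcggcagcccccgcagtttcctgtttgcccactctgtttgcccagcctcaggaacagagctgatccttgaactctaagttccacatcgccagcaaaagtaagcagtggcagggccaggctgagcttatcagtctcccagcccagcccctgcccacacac
Fabp1, chr6:71199629-71199928: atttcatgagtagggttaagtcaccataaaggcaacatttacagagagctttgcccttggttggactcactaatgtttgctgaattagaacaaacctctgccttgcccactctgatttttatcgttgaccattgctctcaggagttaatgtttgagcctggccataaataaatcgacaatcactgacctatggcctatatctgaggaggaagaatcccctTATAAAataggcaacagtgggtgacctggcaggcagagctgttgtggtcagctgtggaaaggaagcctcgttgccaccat
Muc2, chr7:141690090-141690389: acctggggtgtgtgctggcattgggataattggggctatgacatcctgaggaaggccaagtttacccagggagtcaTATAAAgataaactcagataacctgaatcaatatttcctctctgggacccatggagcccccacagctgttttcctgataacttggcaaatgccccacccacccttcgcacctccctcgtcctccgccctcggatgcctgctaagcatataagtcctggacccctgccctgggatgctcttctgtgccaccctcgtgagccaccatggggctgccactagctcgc

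In Reg3b the TATAAA match began 29 bases before the start site and in Fabp1 30 bases before it, while in Muc2 it lay 174 bases before it. Reg3b also held 1 TTCNNNGAA match, 129 bases before the start. The Apoa1 window held neither. Over the whole table, 13.6% of 32851 promoters held TATAAA and 8.30% held TTCNNNGAA, against 10 and 2 of the 26 genes of the list that have an entry. GGAATG, the letters bound by TEAD factors, was found in 14.7% of all promoters and in 4 of the 26, and CAAAGTCCA, an HNF4 element, in 0.475% and in 1 of the 26. None of the 4 promoters shown held either of the last 2. The motifs do not overlap in the windows shown, and a match is a description of letters only. Krt19 has no entry. It lies on chromosome 11 (100140810-100145926). In the list, 3 pairs are neighbours: Krt8 and Krt18 on chromosome 15 (23.9 kb apart), Reg3b and Reg1 on chromosome 6 (52.5 kb) and Apoa1 and Apoa4 on chromosome 9 (10.4 kb).

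One library, WT IntSC 6, stood apart from the other 5 WT IntSC libraries in its epithelial genes, with Epcam, Cdh1 and Agr2 far above theirs. The 2 calls between IntSC genotypes given below were kept without it (Krt19 adjusted p = 0.00616, Reg3b adjusted p = 0.0270).

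The sorted cells held little RNA of the listed epithelial genes. Tff2, an epithelial gene outside the list that is described below, reached 4677 CPM in WT IntSC 6. The 27 epithelial genes together took between 0.00213% and 0.0484% of the reads of a library. Their summed level was 49.9, 21.5, 33.0, 32.7, 53.6 and 238 CPM in the 6 WT IntSC libraries and 109, 114, 200.1, 198 and 329 CPM in the 5 KO IntSC libraries. It was 140, 237, 478 and 82.9 CPM in WT LECs and 79.7, 180 and 380 CPM in KO LECs. All KO IntSC libraries were above 5 of the 6 WT IntSC libraries, and WT IntSC 6 lay among the KO libraries. In LECs the genotypes overlapped. In libraries of sorted cells, more epithelial cells and more RNA from each of them cannot be told apart, nor can either be told from RNA that is free in the suspension.

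**Figure D1:**
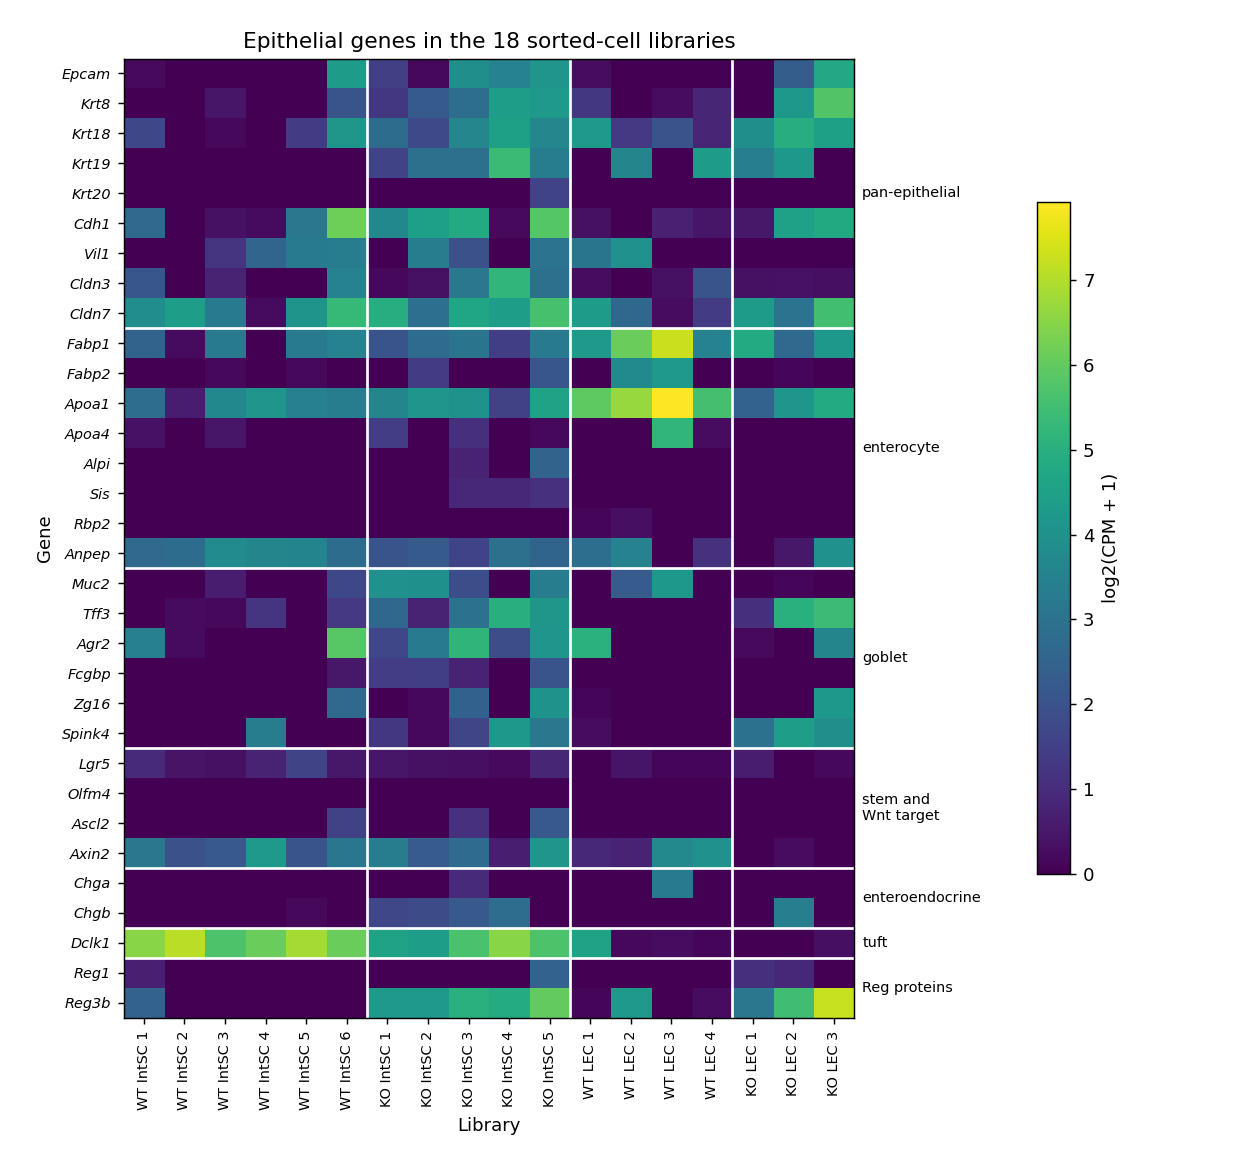
Level of the 32 genes (rows, by class) in the 18 libraries (columns, by group) as log2(CPM + 1), from dark (no read) to yellow (highest). Most cells of the IntSC columns of WT mice are dark except Dclk1, Cldn7, Apoa1, Fabp1, Anpep and Axin2, WT IntSC 6 shows Epcam, Cdh1 and Agr2, KO IntSC columns show Krt19, Tff3 and Reg3b, and WT LEC columns show Apoa1 and Fabp1.

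More of the epithelial genes were seen in KO IntSC libraries. Over 3 reads were counted for 9, 1, 6, 5, 6 and 12 of the 27 genes in the WT IntSC libraries and for 14, 13, 21, 12 and 22 in the KO IntSC libraries, which have similar totals (5361250 to 7971443 against 6485735 to 8095271 reads). WT IntSC 6 and KO IntSC 4 were equal at 12. Of all symbols, 11848 to 14429 had a read in WT IntSC libraries and 12383 to 15926 in KO IntSC libraries. In LECs over 3 reads were counted for 5, 8, 7 and 6 of the 27 genes in WT and 9, 11 and 10 in KO libraries.

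The make-up of the signal of the 27 genes also differed in kind between libraries. In WT LECs the enterocyte genes made 56.7% to 94.2% of the summed level of the 27 genes, and Apoa1 was the largest single contributor in each of the 4 libraries. KO LECs had 11.9% to 40.1% from enterocyte genes and 11.2% to 40.0% from the Reg genes. In KO IntSCs the pan-epithelial share was 38.2% to 54.4%, the goblet share 21.2% to 26.1%, the Reg share 14.3% to 20.9% and the enterocyte share 2.34% to 20.8%. In WT IntSCs goblet genes made 0% to 31.4%, and Reg genes 0% in 5 of the 6 libraries.

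**Figure D2:**
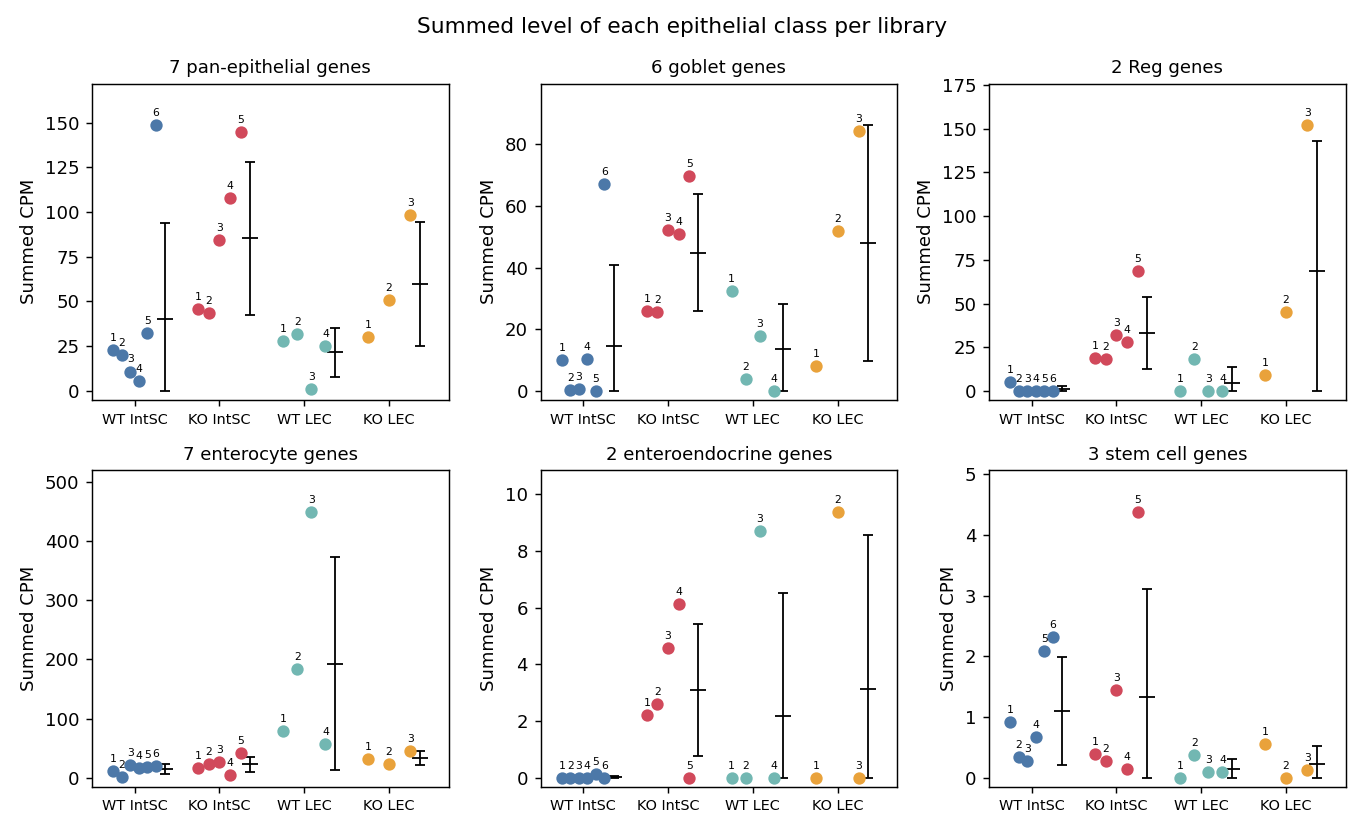
Summed CPM of 6 epithelial classes per library (points, numbered by replicate) in the 4 groups, without the 5 genes shared with other cells; black bars are the mean and SD of a group, with the lower end stopped at 0. The goblet and pan-epithelial sums of WT IntSC 6 (67.2 and 149 CPM) sit at the upper end of the KO IntSC values, the Reg sum separates KO from WT IntSCs, and the enterocyte sum is highest in WT LECs.

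KO IntSCs held more RNA of 2 epithelial genes, Krt19 and Reg3b, than WT IntSCs. The comparison asks what the loss of Lats1 and Lats2 in stromal cells changes in the sorted fraction. Krt19, a keratin of simple epithelia and ducts, had no read in any of the 6 WT IntSC libraries and 2.09, 6.57, 6.60, 41.5 and 9.03 CPM in the 5 KO IntSC libraries. The groups did not overlap. Set against 3 reads over the whole WT group (0.0787 CPM), the pooled KO level of 12.4 CPM was at least 157-fold higher. The fitted log2 fold change was 9.51 ± 1.51 (SE; edgeR quasi-likelihood test, adjusted p = 0.00339), a value that depends on the prior count because WT is at 0. Krt19 passed without each library in turn (adjusted p 0.00451 to 0.0288). It did not pass when all 4 groups were fitted together (adjusted p = 0.0995) or with the replicate number in the fit (adjusted p = 0.0661). In LECs, where 2 of 4 WT libraries (11.4 and 19.9 CPM) and 2 of 3 KO libraries (9.49 and 17.7 CPM) had reads, the genotypes overlapped. Krt19 did not follow Epcam in every library. Both had reads in the 5 KO IntSC libraries and in KO LEC 2. Krt19 had none in WT IntSC 6 and KO LEC 3, where Epcam was at 19.4 and 26.4 CPM. In WT LEC 2, WT LEC 4 and KO LEC 1, Krt19 had reads and Epcam none.

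Reg3b, a secreted antibacterial lectin of the gut epithelium that is induced by infection and inflammation, was the other gene called in IntSCs. It was at 4.56 CPM in WT IntSC 1, at 0 in the other 5 WT libraries, and at 18.6, 18.2, 31.8, 28.2 and 64.1 CPM in KO. Every KO library lay above every WT library. KO exceeded WT by 5.35 ± 1.16 on the log2 scale (edgeR adjusted p = 0.0272). The call was lost with DESeq2 (adjusted p = 0.0745), with no filter beyond 1 read (adjusted p = 0.0975) and when all 4 groups were fitted together (adjusted p = 0.352), without WT IntSC 2 or without any 1 of the KO libraries (adjusted p 0.0529 to 0.0761), and without WT IntSC 1 the fitted value became 10.79. In LECs it was at 0.0951, 18.02, 0 and 0.200 CPM in WT and 7.82, 44.2 and 152 CPM in KO, where the groups overlap and the gene did not pass (3.96 ± 1.68, adjusted p = 0.553). Reg1, its neighbour, a secreted Reg lectin, had reads in 4 libraries only, at 0.608 CPM in WT IntSC 1, 4.65 in KO IntSC 5, 1.12 in KO LEC 1 and 0.826 in KO LEC 2, and passed no filter.

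With edgeR these were the only 2 of the 18 genes of the list tested in IntSCs that passed, both higher in KO and both from the 27 epithelial genes, 13 of which were tested. DESeq2 called Krt19, Tff3 and Krt8 (adjusted p = 0.0324 for Krt8) and not Reg3b. Among all 12421 genes tested, 0.853% were called higher in KO and 0.62% lower, and 1.63% had every KO library above every WT library. A gene that is silent in WT can enter the test only through its KO level, so neither the number of tested genes that were higher (13 of 18) nor their median log2 fold change (1.06, against 0.0026 over all genes tested) is read as support.

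**Figure D3:**
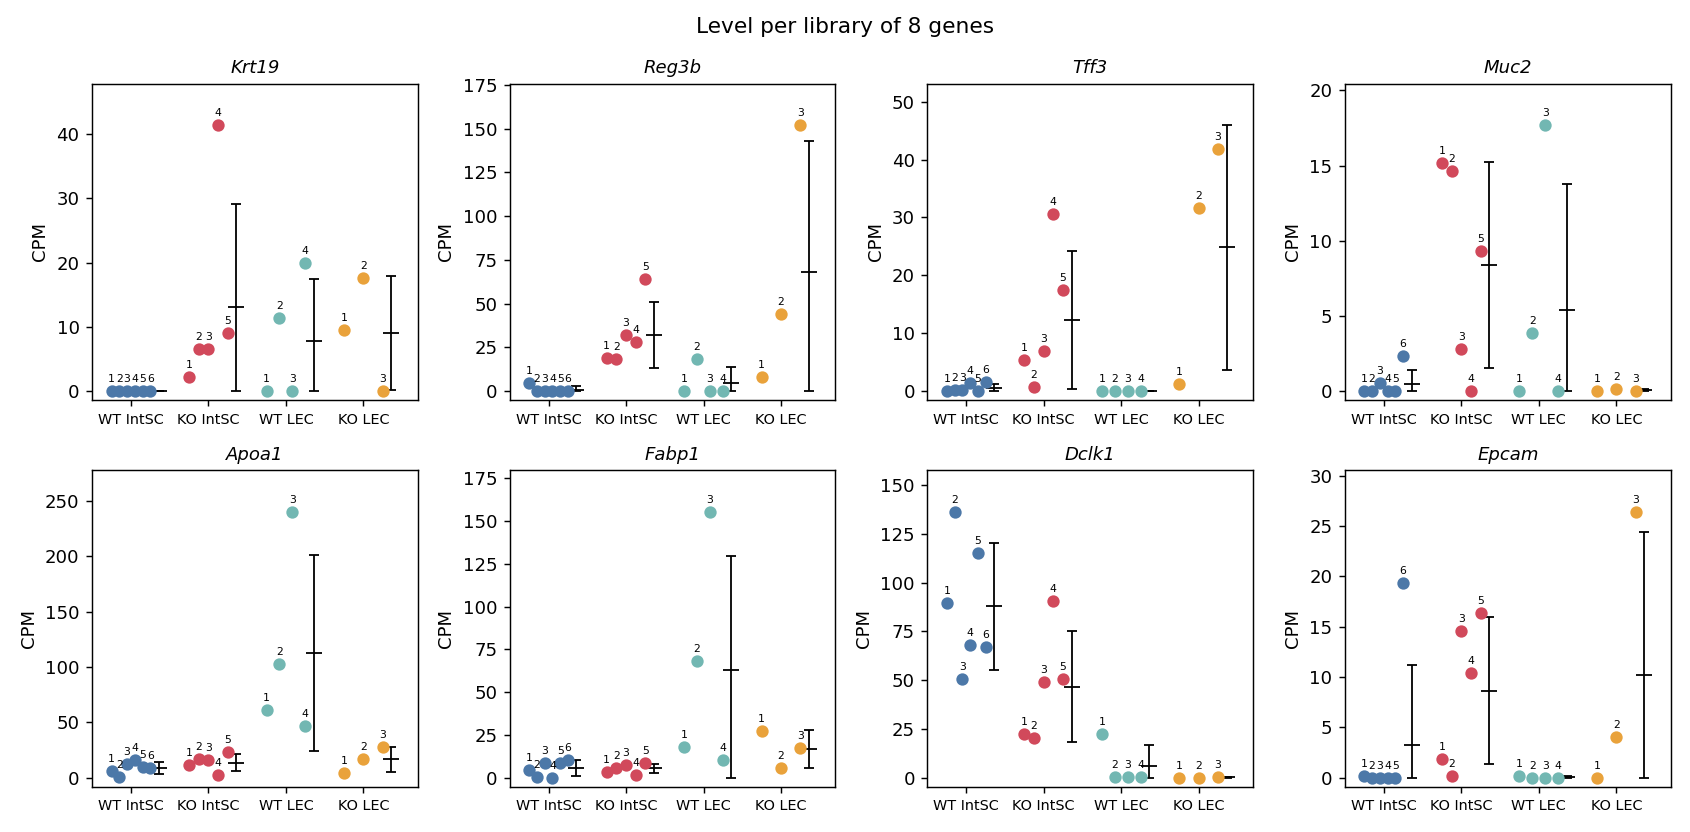
CPM of 8 genes per library (points, numbered by replicate) in the 4 groups; black bars are the mean and SD of a group, with the lower end stopped at 0. Krt19 and Reg3b separate KO from WT IntSCs, Apoa1 separates WT LECs from WT IntSCs, and Epcam in WT IntSC 6 (19.4 CPM) stands among the KO values.

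Epcam, the adhesion protein that the depleting beads bind, was at 0.152 CPM in WT IntSC 1, at 0 in the next 4 libraries and at 19.4 CPM in WT IntSC 6. In KO IntSCs it was at 1.83, 0.137, 14.5, 10.4 and 16.3 CPM. The difference was 1.41 ± 1.53 on the log2 scale (adjusted p = 0.898), and without WT IntSC 6 too few libraries had enough reads for a test. LECs had 0.190, 0, 0 and 0 CPM in WT and 0, 4.03 and 26.4 CPM in KO. Cdh1, which encodes E-cadherin, was at 5.48, 0, 0.271, 0.168, 7.97 and 71.0 CPM in WT IntSCs, and at 12.03, 21.1, 27.6, 0.149 and 55.9 CPM in KO IntSCs. Its LEC values were 0.656 CPM or less in all 4 WT libraries and 0.419, 21.9 and 26.8 CPM in KO.

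The claudins, proteins of tight junctions, were not equally widespread. Cldn7 was found in every library, at 13.8, 20.1, 8.53, 0.168, 16.2 and 38.8 CPM in WT IntSCs and 29.4, 6.44, 24.96, 19.98 and 48.1 CPM in KO IntSCs, with full overlap. In LECs its values were 19.9, 5.43, 0.187 and 1.60 CPM in WT and 19.96, 7.12 and 44.7 CPM in KO (log2 fold change 1.89 ± 1.57, adjusted p = 0.995). Cldn3 was at 10.3 CPM or less in WT IntSCs and reached 35.6 CPM in KO IntSC 4, with 0.131 to 7.80 CPM in the other KO libraries (2.09 ± 1.43, adjusted p = 0.744). It stayed at 3.20 CPM or less in all 7 LEC libraries.

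Vil1, which encodes the microvillus protein villin, was at 0 to 9.27 CPM in WT IntSCs and 0 to 9.18 CPM in KO IntSCs. It had reads in 2 of the 4 WT LEC libraries (7.42 and 14.9 CPM) and none in the 3 KO LEC libraries. Krt20, a keratin of mature villus cells, had reads in KO IntSC 5 alone (15 reads, 1.99 CPM).

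None of the 4 goblet genes tested in IntSCs passed the threshold. Tff3, a trefoil peptide of intestinal mucus, was at 0, 0.172, 0.135, 1.35, 0 and 1.47 CPM in WT IntSCs and at 5.36, 0.685, 6.96, 30.6 and 17.4 CPM in KO IntSCs. Only KO IntSC 2 fell within the WT range. KO exceeded WT by 4.55 ± 1.24 on the log2 scale (edgeR adjusted p = 0.0755; DESeq2 adjusted p = 0.00157). Muc2, the gel-forming mucin of the intestine, was at 0.542 and 2.32 CPM in WT IntSC 3 and 6 and at 0 in the other 4, against 15.2, 14.7, 2.76, 0 and 9.30 CPM in KO (4.12 ± 1.53, adjusted p = 0.273). Spink4, a protease inhibitor-like goblet peptide, was at 8.92 CPM in WT IntSC 4 and at 0 in the other 5, and at 1.44, 0.137, 2.16, 17.7 and 7.84 CPM in KO (1.97 ± 1.62, adjusted p = 0.820).

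Of the remaining goblet genes, Zg16 and Fcgbp had over 3 reads in 4 of the 18 libraries each and Agr2 in 9. Agr2, a disulfide isomerase needed for mucin folding, reached 57.5 CPM in WT IntSC 6 and 9.89 CPM in WT IntSC 1, with at most 0.172 CPM in the other 4, and was at 2.22, 8.35, 35.2, 2.68 and 16.7 CPM in KO IntSCs. Zg16, a lectin that binds bacteria in mucus, was at 5.48 CPM in WT IntSC 6 and otherwise at 0 in WT, and at 0, 0.137, 4.44, 0 and 15.3 CPM in KO. Fcgbp, a mucus protein that is bound to Muc2, had 1 value above 0 in WT (0.421 CPM in WT IntSC 6) and 4 in KO, from 0.720 to 3.19 CPM.

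In LECs the goblet genes that were highest in KO were Tff3 and Spink4. Tff3 had no read in the 4 WT LEC libraries and was at 1.12, 31.6 and 41.8 CPM in the 3 KO LEC libraries, where the pooled level of 26.1 CPM was at least 342-fold higher than 3 reads over the WT group (0.0764 CPM). Spink4 was at 0.190 CPM in WT LEC 1, 0 in the other 3 and 6.84, 20.1 and 13.9 CPM in KO. For both genes every KO library was above every WT library, as it was for 3.48% of the 10639 genes tested. Neither passed the test with 4 against 3 libraries (Tff3 10.89 ± 2.60, adjusted p = 0.246; Spink4 7.84 ± 2.52, adjusted p = 0.406), while DESeq2 called both (adjusted p = 3.14e-05 and 0.00535). Muc2 was at 3.83 and 17.7 CPM in 2 WT LEC libraries and at 0.103 CPM or less in KO, and Agr2 was at 32.1 CPM in WT LEC 1 and 11.2 CPM in KO LEC 3 and at 0.140 CPM or less elsewhere. Zg16 was at 17.5 CPM in KO LEC 3 and at most 0.0951 CPM in the other LEC libraries, and Fcgbp had no read in LECs.

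No gene of the list was called between KO and WT LECs, of 10 tested. With edgeR, 0.0282% of all genes were called higher and 0.0376% lower in KO LECs, and 5 of the 10 genes and 837 of the 10639 had an unadjusted p under 0.05. Tff3 and Spink4, with 0 and 2 reads in WT LECs, could enter the test only through their KO level. The count under 0.05 is therefore not read as support. DESeq2 called 3 of the 10, limma-voom none.

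**Figure D4:**
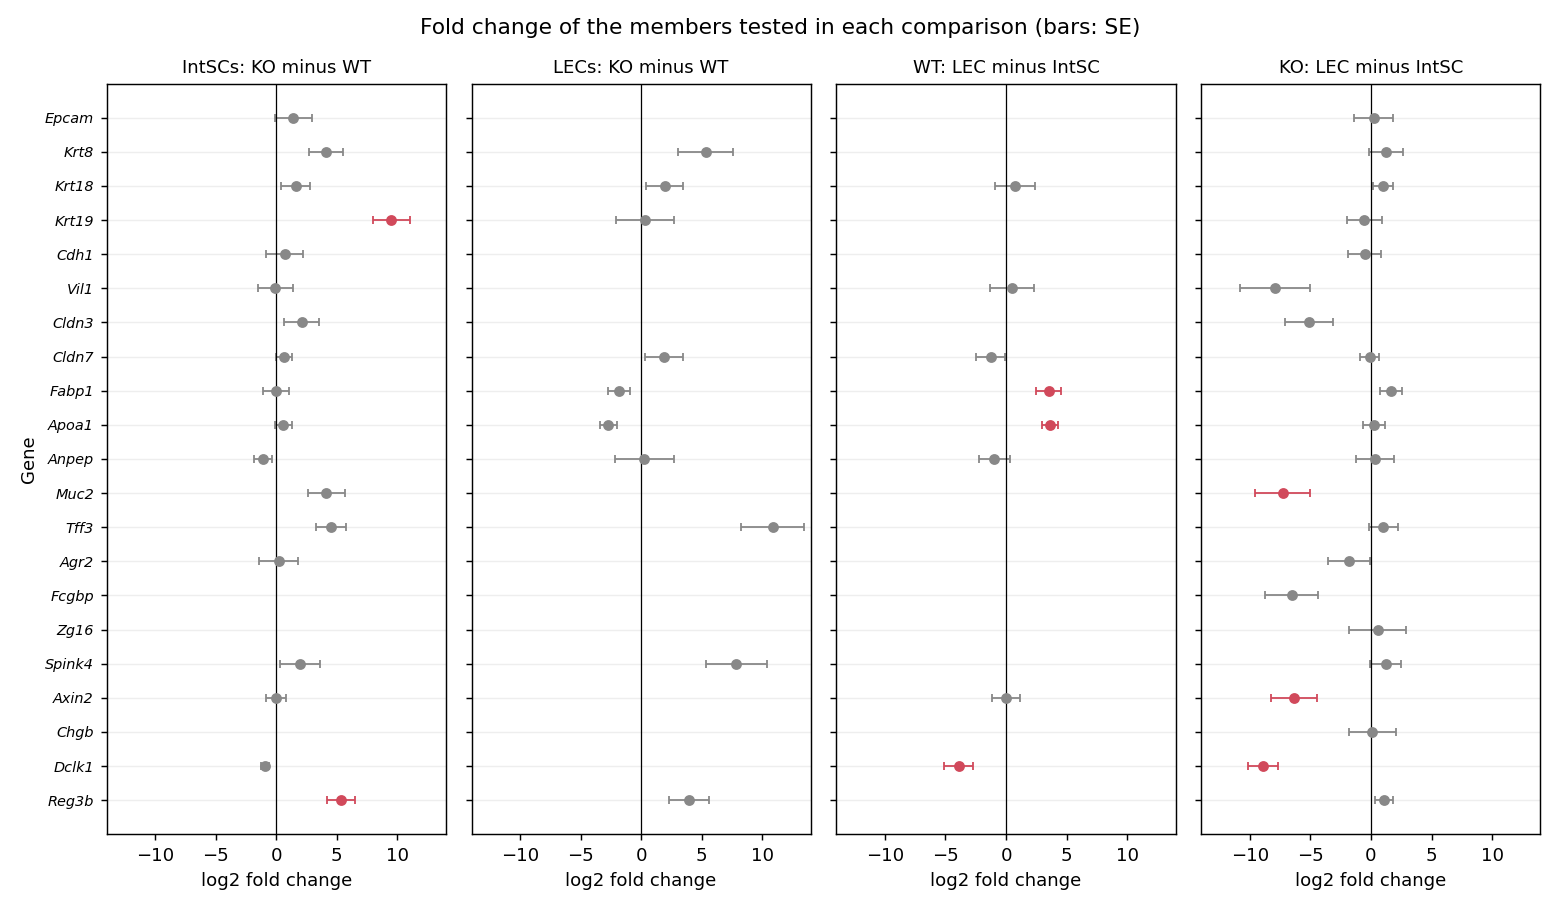
Log2 fold change with its SE (bars) of each gene of the list tested in the 4 comparisons, in red where the edgeR adjusted p was under 0.05 and in grey otherwise; a gene with no point was not tested there. Krt19 and Reg3b pass between IntSC genotypes, Apoa1, Fabp1 and Dclk1 between WT LECs and WT IntSCs, and Dclk1, Axin2 and Muc2 between KO LECs and KO IntSCs.

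WT LECs held more RNA of the enterocyte genes Apoa1 and Fabp1 than WT IntSCs, and enterocyte genes made up most of the summed level of the 27 genes there. Tff2, outside the list, was at 1694 CPM in WT LEC 1, where the 27 genes summed to 140 CPM. Apoa1, an apolipoprotein that enterocytes load onto chylomicrons and high-density lipoprotein, was at 61.2, 102, 240.4 and 47.0 CPM in the 4 WT LEC libraries, and at 6.08, 0.516, 11.9, 16.3, 9.93 and 9.06 CPM in WT IntSCs. Every WT LEC library lay above every WT IntSC library, which held for 9.65% of the 12203 genes tested. The log2 fold change of WT LECs over WT IntSCs was 3.66 ± 0.65 (edgeR adjusted p = 0.000876), and it passed without each library in turn. Fabp1, the fatty acid binding protein of liver and proximal gut, was at 17.9, 68.0, 156 and 10.3 CPM in WT LECs. It was at 4.71, 0.172, 8.80, 0, 8.75 and 10.3 CPM in WT IntSCs, so that the groups just overlap. Its difference was 3.53 ± 1.04 (adjusted p = 0.0248), a call that was lost without WT LEC 2 (adjusted p = 0.0542) or WT LEC 3 (adjusted p = 0.138), with limma-voom (adjusted p = 0.0576) and with no filter beyond 1 read (adjusted p = 0.0646).

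In KO LECs Apoa1 was at 4.61, 16.8 and 27.9 CPM and Fabp1 at 27.4, 5.57 and 17.5 CPM. For Apoa1 every KO LEC library lay below every WT LEC library, as for 6.45% of all genes tested. The log2 fold changes of KO against WT LECs were -2.70 ± 0.73 for Apoa1 (edgeR adjusted p = 0.282; DESeq2 adjusted p = 0.0151) and -1.84 ± 0.93 for Fabp1 (adjusted p = 0.707). In IntSCs neither differed between genotypes by more than the spread, with Apoa1 at 11.2, 16.4, 15.7, 1.94 and 22.8 CPM and Fabp1 at 3.14, 5.75, 7.32, 1.79 and 8.76 CPM in KO. Neither passed between KO LECs and KO IntSCs (Fabp1 1.65 ± 0.93, adjusted p = 0.242).

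The rest of the enterocyte list was sparse. Fabp2, the intestinal fatty acid binding protein, was at 12.5 and 18.2 CPM in WT LEC 2 and 3 and at 3.32 CPM or less in the other 16 libraries. Apoa4, an apolipoprotein of chylomicrons, was at 36.3 CPM in WT LEC 3 and at 1.70 CPM or less in the other 17 libraries. WT LEC 3 had the highest value of Fabp1, Fabp2, Apoa1 and Apoa4 alike. Alpi (intestinal alkaline phosphatase) and Sis (sucrase-isomaltase), both enzymes of the villus brush border, had reads in KO IntSCs only, Alpi at 0.720 and 4.78 CPM in KO IntSC 3 and 5 and Sis at 0.840, 0.895 and 1.20 CPM in KO IntSC 3, 4 and 5. Rbp2, a retinol binding protein of enterocytes, had 1 read in WT LEC 1 and 2 reads in WT LEC 2 and none in the other 16 libraries.

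Of the 8 genes of the list tested between WT LECs and WT IntSCs, Apoa1 and Fabp1 were higher and Dclk1 was lower in LECs, against 10.3% and 12.3% of all genes called higher and lower. Between the KO groups 21 genes of the list were tested. None was higher in LECs and 3 were lower (Dclk1, Axin2 and Muc2), where 9.11% and 16.8% of 12758 genes were called higher and lower.

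Stem cell genes were at or near the limit of detection. Olfm4, a secreted protein of crypt base stem cells, had no read in any of the 18 libraries (139441225 reads in all). Without TMM scaling, this allows up to 0.0215 CPM over all libraries together. Lgr5, the R-spondin receptor that marks the same cells, had 56 reads in all, spread over 16 libraries, at 0.271 to 2.09 CPM in WT IntSCs, 0.149 to 0.797 CPM in KO IntSCs and 0.558 CPM or less in LECs, so most values rest on 3 reads or fewer. Ascl2, a transcription factor of crypt stem cells, had reads in WT IntSC 6 (1.90 CPM), KO IntSC 3 (1.20 CPM) and KO IntSC 5 (3.59 CPM) and in no LEC library. None of these 3 genes held enough reads to be tested in the 4 pairs of groups. Ascl2 was tested only in the fit of all 4 groups described below, where it did not pass.

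Enteroendocrine RNA was rare as well. Chga, chromogranin A of hormone granules, had reads in KO IntSC 3 (0.960 CPM) and WT LEC 3 (8.71 CPM) only. Chgb, its relative, was at 2.22, 2.60, 3.60, 6.11 and 0 CPM in KO IntSCs, at 0.131 CPM in WT IntSC 5 and 0 in the other 5 WT IntSC libraries, at 9.39 CPM in KO LEC 2 and at 0 in the other 6 LEC libraries. Between the KO groups, the one pair of groups in which Chgb could be tested, it did not pass.

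Of the genes also made by other cells, Dclk1 differed between the sorted cell types in both genotypes and Axin2 in KO. Dclk1 was the highest of them, at 89.7, 136, 50.7, 68.0, 115 and 67.2 CPM in WT IntSCs and 22.5, 20.4, 49.2, 90.5 and 50.7 CPM in KO IntSCs. In LECs it was at 22.5 CPM in WT LEC 1, the LEC library with the highest summed level of the 9 stromal markers (2437 CPM against 836 to 1021 CPM in the other 6), and at 0.248 CPM or less in the other 6. The fall from IntSCs to LECs was -3.92 ± 1.21 on the log2 scale in WT (adjusted p = 0.0308; -9.14 without WT LEC 1) and -8.91 ± 1.23 in KO (adjusted p = 0.000554; kept without each library). The call in WT was lost without WT LEC 2, 3 or 4 (adjusted p 0.0638 to 0.0791), with no filter beyond 1 read (adjusted p = 0.123) and with a mean count of at least 10 (adjusted p = 0.0516). All LEC values were below all IntSC values of the same genotype, as for 11.4% of genes tested in WT and 20.9% in KO. Another 5 tuft cell genes summed to at most 13.95 CPM in any library and to 0 in 6 of the 7 LEC libraries. Between genotypes in IntSCs Dclk1 did not pass.

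Axin2 was at 7.76, 2.92, 3.66, 18.01, 3.14 and 7.58 CPM in WT IntSCs, and at 9.29, 3.83, 5.88, 0.596 and 16.5 CPM in KO IntSCs. In LECs it was at 0.856, 0.740, 12.4 and 15.0 CPM in WT and at 0, 0.206 and 0 CPM in KO. It was lower in KO LECs than in KO IntSCs (-6.34 ± 1.90, adjusted p = 0.0334), a call kept in 2 of 8 fits that left out a library and lost with no filter beyond 1 read (adjusted p = 0.0539). Muc2 was also lower there (-7.29 ± 2.27, adjusted p = 0.0386), a call kept in 1 of 8 such fits, with adjusted p up to 0.0761, and lost when all 4 groups were fitted together (adjusted p = 0.0769). For both, the only LEC reads in KO were 2 and 1 in all.

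Krt8 and Krt18 are the partner keratins of simple epithelia. Krt8 was at 3.16 CPM in WT IntSC 6, 0.406 CPM in WT IntSC 3 and 0 in the other 4, and at 1.44, 3.70, 6.24, 20.6 and 18.1 CPM in KO IntSCs (4.08 ± 1.40, adjusted p = 0.206). Without WT IntSC 6 it passed (6.60, adjusted p = 0.0289). In LECs it was at 1.43, 0, 0.187 and 0.800 CPM in WT and 0, 17.8 and 53.1 CPM in KO (5.34 ± 2.26, adjusted p = 0.549). Krt18 was at 0 to 2.28 CPM in 5 WT IntSC libraries, 17.1 CPM in WT IntSC 6 and 2.33 to 21.5 CPM in KO IntSCs (1.60 ± 1.18, adjusted p = 0.780), and at 18.4, 1.48, 3.09 and 0.800 CPM in WT LECs and 14.5, 29.5 and 21.5 CPM in KO LECs (1.95 ± 1.54, adjusted p = 0.973). Anpep was at 5.48 to 13.0032 CPM in WT IntSCs and 2.04 to 6.56 CPM in KO IntSCs (-1.10 ± 0.75, adjusted p = 0.742), and ranged from 0 to 15.0 CPM in LECs.

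Whether the genotype difference depended on the cell type was tested as an interaction over all 4 groups. None of the 23 genes tested passed with edgeR, where 1.42% of 14015 genes were called with a positive difference (the KO minus WT change in IntSCs minus that in LECs) and 0.278% with a negative one. A positive difference can come from a gain in KO IntSCs, from a loss in KO LECs or from both. Of the 23, 10 had an unadjusted p under 0.05, as did 2217 of all genes, and DESeq2 called 4 (Apoa1, Axin2, Krt19 and Muc2). Genes near 0 in some groups enter this fit only through the groups where they are high. The count under 0.05 is therefore not read as support here either. The largest positive estimates were those of Fabp2 (11.17 ± 3.71, adjusted p = 0.126), Muc2 (10.79 ± 3.60, adjusted p = 0.127), Krt19 (9.46 ± 3.09, adjusted p = 0.128), Vil1 (8.38 ± 3.49, adjusted p = 0.233) and Axin2 (6.35 ± 2.10, adjusted p = 0.124). The largest negative ones were those of Tff3 (-6.05 ± 2.18, adjusted p = 0.166), Epcam (-5.87 ± 2.96, adjusted p = 0.342) and Spink4 (-5.74 ± 2.75, adjusted p = 0.309). Epcam turned to 0.18 without WT IntSC 6, and Spink4 to 0.81 without WT IntSC 4.

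A second set of 82 epithelial genes, none of them in the list and also drawn up with earlier results of these data known, was counted in the same fits. In IntSCs 4 of the 31 tested were called, all higher in KO, where 0.853% of all genes tested were called higher. Dmbt1, Lyz1 and Reg3g were at no more than 0.304, 0.914 and 2.13 CPM in WT IntSCs. Such genes enter the test only through their KO level, so the count is not read as support. Of the 4 called, 3 encode antimicrobial or defence proteins of the gut epithelium. They are Dmbt1 (8.18 ± 1.07, adjusted p = 0.000257), Lyz1, the lysozyme of Paneth cells (6.44 ± 0.93, adjusted p = 0.000580), and Reg3g, the paralog of Reg3b on chromosome 6 (5.91 ± 1.03, adjusted p = 0.00318). Lyz1 was at 0.914 CPM or less in WT IntSCs and at 20.7, 17.3, 22.3, 19.98 and 23.8 CPM in KO IntSCs. Its near-identical paralog Lyz2, the lysozyme of macrophages, was at 2.74 CPM or less in every library, and how reads shared by the pair were counted is not given. The 8 Paneth cell genes, among them Lyz1 and Dmbt1, summed to 0.271 to 6.95 CPM in WT IntSCs and 38.5 to 126 CPM in KO IntSCs. WT IntSC 6, with its high goblet and pan-epithelial levels, was at 6.95 CPM. The fourth, Smoc2 (0.90 ± 0.20, adjusted p = 0.0256), marks crypt stem cells but is also a stromal matrix gene, and was at 83.9 to 147 CPM in WT and 174 to 295 CPM in KO IntSCs. Reg3b and Reg3g are similar in sequence, so reads that fit both may have been split.

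In LECs none of the 18 tested passed between genotypes. Between WT LECs and WT IntSCs 3 of 26 were higher in LECs, namely Nts, the peptide neurotensin, which LECs also make (8.85 ± 1.22, adjusted p = 6.77e-05), the claudin gene Cldn4 (8.75 ± 0.79, adjusted p = 1.03e-06) and Apoc3, the apolipoprotein gene beside Apoa1 (3.84 ± 1.07, adjusted p = 0.0187), and 7 were lower, against 10.3% and 12.3% of all genes. Apoc3 was at 1.14, 78.2, 140 and 32.9 CPM in WT LECs. Its highest library was WT LEC 3, as for Apoa1. Of the 6 enterocyte genes of this set tested there, 1 was called higher and 1 lower in LECs. Treh, another enterocyte gene of the set, was at 48.6 to 107 CPM in WT IntSCs and 0.281 to 11.1 CPM in WT LECs. The 20 enterocyte genes of the set summed to 132 to 216 CPM in WT IntSCs and 63.5 to 417 CPM in WT LECs, which overlap. Between the KO groups 1 of 39 was higher in LECs (Cldn4) and 7 were lower, against 9.11% and 16.8% of all genes. In the interaction 0 of 45 passed with edgeR and 9 had an unadjusted p under 0.05, as did 2217 of the 14015 genes tested. As for the listed genes, that count is not read as support.

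Genes whose level followed Epcam most closely were sought over the 11 IntSC libraries among 10570 genes with a mean of at least 5 CPM. The 5 highest Spearman correlations were those of Casz1 (0.968), Galnt6 (0.967), Wfdc18 (0.952), Tff2 (0.930) and Eif2d (0.912). These are descriptions over 11 libraries that share their group, and 4 of the 11 Epcam values are 0. For the sum of the 6 goblet genes the 5 were Casz1 (0.973), Galnt6 (0.927), Epcam (0.926), Angpt2 (0.900) and Egr1 (0.900).

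Of these, Tff2 had the widest range. It encodes a trefoil peptide of stomach mucous cells and of the Brunner glands of the duodenum, and its highest values were above those of every gene of the list. It was at 242, 6.19, 2.03, 1.18, 0 and 4677 CPM in WT IntSCs and at 75.9, 248, 918, 612 and 664 CPM in KO IntSCs. In LECs it was at 1694, 0.494, 0.937 and 1.70 CPM in WT and at 257, 1643 and 1264 CPM in KO. The 3 WT libraries at 242 CPM or more were WT IntSC 1, WT IntSC 6 and WT LEC 1, which are also the 3 WT libraries with the highest Agr2. All 8 KO libraries were at 75.9 CPM or more. Tff2, singled out after its values were seen, did not pass in either genotype comparison (IntSCs -0.72 ± 2.06, adjusted p = 0.976; LECs 1.40 ± 2.77, adjusted p = 0.9999).

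**Figure D5:**
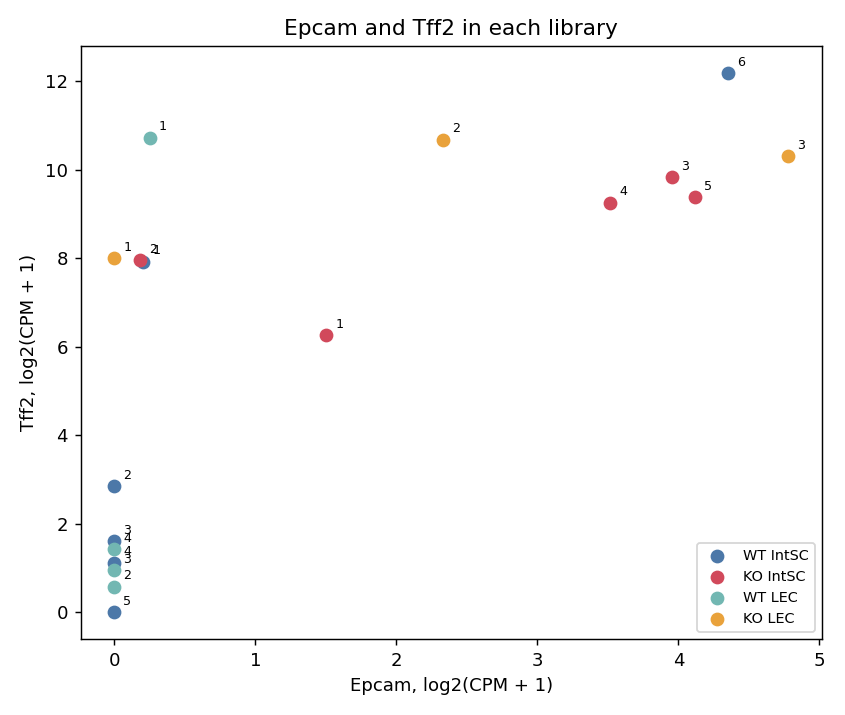
Epcam against Tff2 in the 18 libraries (points, numbered by replicate and coloured by group), both as log2(CPM + 1). Of the 10 WT libraries, 7 lie at the lower left with little of either, WT IntSC 6 is at the upper right, and WT LEC 1, WT IntSC 1, KO IntSC 2 and KO LEC 1 have Tff2 with almost no Epcam.

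Values of other cell types were set beside these differences. The 8 leukocyte markers summed to 0.337 to 26.99 CPM in IntSC libraries, 76.6 to 146 CPM in WT LECs and 28.7 to 65.3 CPM in KO LECs. Much of the LEC sums was the single gene Cd74, at 77.6, 45.2, 72.6 and 146 CPM in WT and 55.8, 36.1 and 14.02 CPM in KO LECs. Cd52 added 21.97 CPM in WT LEC 2 and Laptm5 14.3 CPM in KO LEC 3. Ptprc was at 0.247 CPM or less in LEC libraries, and Cd3e and Cd79a had no read there. The LEC sums are therefore not read as a measure of leukocytes. The 6 smooth muscle markers summed to 1037 to 1801 CPM in WT and 1252 to 2336 CPM in KO IntSCs. The share of reads on Rn45s, a ribosomal precursor, was 11.5% to 24.4% in IntSCs and 7.02% to 12.4% in LECs, and was highest in WT IntSC 6, which also had the lowest Pdgfrb of the IntSC libraries (215 CPM). The part of these values in the results above was not tested.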

How the data were processed

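RNA was taken from 18 libraries of sorted IntSCs and LECs, grouped by the labels, and sequenced from the 3′ end (QuantSeq). The authors deposited whole-number read counts per gene symbol, not normalized. The submitters' processing notes name Bowtie2, edgeR and mm10, and the study's methods name TopHat and cufflinks. The counting program and annotation are not given in the sources used here. Each table held 23282 rows and 23238 symbols. The 35 symbols on more than 1 row were summed.

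Each of 4 pairs of groups was fitted with edgeR 4.0.16 (TMM factors, filterByExpr, robust quasi-likelihood test) in R 4.3.3, and the interaction over all 4 groups. A gene was called at a Benjamini-Hochberg adjusted p under 0.05 over all genes tested. Levels are CPM from TMM library sizes over all 18 libraries, with log2(CPM + 1) in 2 plots. Alternatives were RLE and upper-quartile factors, DESeq2 1.42.0, limma-voom (3.58.1), other filters on low counts, no Rn45s, all 4 groups in 1 fit, a replicate block, and each library left out. The scripts were tested on simulated data.

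The genes, lists and tests were chosen with earlier results of these data known. All 32 genes are given by their levels. Fold changes are given for genes called and for at most 8 others per comparison with a mean of at least 5 CPM in 1 group, by size, and from the second set for at most 3 called genes per list.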

Additional observations from a re-analysis of the deposited data

Results flagged for a closer look

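In groups of 4 to 10 libraries, the highest or lowest value lay far from the rest by Dixon's 95% criterion in 34 of 87 groups of values examined, where chance gives about 1 in 20 (4.35). Groups in which most values are 0 meet the criterion easily, and groups of 3 libraries were not examined.

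WT IntSC 6 accounted for 11 of the 34. It was far above the other WT IntSC libraries for Epcam (19.4 CPM), Krt8 (3.16), Krt18 (17.1), Cdh1 (71.0), Cldn3 (10.3), Muc2 (2.32), Agr2 (57.5), Zg16 (5.48) and Ascl2 (1.90), for the summed 9 pan-epithelial genes (169 CPM) and for the summed goblet genes (67.2 CPM).

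Other WT IntSC libraries stood apart for single genes. WT IntSC 1 did so for Reg1 (0.608 CPM), Reg3b (4.56 CPM) and their sum (5.17 CPM), WT IntSC 4 for Spink4 (8.92 CPM) and Axin2 (18.01 CPM), and WT IntSC 5 for Lgr5 (2.09 CPM) and the summed enteroendocrine genes (0.131 CPM, from 1 gene).

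Among KO IntSCs, KO IntSC 4 stood apart for Krt19 (41.5 CPM) and Cldn3 (35.6 CPM), KO IntSC 3 for Chga (0.960 CPM), and KO IntSC 5 for Krt20 (1.99 CPM), Alpi (4.78 CPM), Reg1 (4.65 CPM) and the summed Reg genes (68.8 CPM).

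Among WT LECs, WT LEC 1 stood apart for Krt18 (18.4 CPM), Agr2 (32.1 CPM) and Dclk1 (22.5 CPM), WT LEC 2 for Reg3b (18.02 CPM) and the summed Reg genes (18.02 CPM), WT LEC 3 for Apoa4 (36.3 CPM), Chga (8.71 CPM) and the summed enteroendocrine genes (8.71 CPM), and WT LEC 4 for Cldn3 (3.20 CPM).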

How the results depend on the processing

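The number of listed genes called between IntSC genotypes was 2, and became 1 with the replicate block, 0 with all 4 groups in one fit and 1 to 3 with a library left out. Between LEC genotypes it was 0, and became 3 with DESeq2 and 1 with all 4 groups in one fit. Between WT cell types it was 3, and became 7 with all 4 groups in one fit and 1 to 3 with a library left out. Between KO cell types it was 3, and became 5 with DESeq2, 1 with the replicate block and 1 to 4 with a library left out. In the interaction it was 0, and became 4 with DESeq2. The causes were not tested. Over all genes, 183 were called between IntSC genotypes, against 376 with DESeq2, 122 with the replicate block and 27 with all 4 groups in one fit. Between LEC genotypes 7 were called, against 309 with DESeq2, 538 with all 4 groups in one fit, 32 with no filter beyond 1 read, 20 with a mean count of at least 10, 18 with limma-voom and 3 with the replicate block. Between WT cell types 2763 were called, against 1596 with the replicate block. Between KO cell types 3302 were called, against 895 with the replicate block, and in the interaction 238, against 1023 with DESeq2, 140 with limma-voom and 16 with the replicate block.

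Deviations of same-numbered libraries correlated at -0.0623 to 0.0800 between IntSC genotypes and at no more than 0.0436 elsewhere. Between WT cell types they correlated at 0.0226 to 0.0436, against a mean of -0.0070 for other numbers. Same numbers thus went together weakly there, which the main test does not use. The 3 calls there were kept under a replicate block (edgeR adjusted p: Apoa1 0.0234, Fabp1 0.0248, Dclk1 0.0366). In the IntSC genotype, LEC genotype, WT cell type and KO cell type comparisons, 3 of 10, 2 of 6, 7 of 8 and 2 of 6 libraries correlated best with their own number. With the replicate block 1, 0, 3, 1 and 0 listed genes were called in these 4 and the interaction. The calls lost under the block were Krt19 between IntSC genotypes (9.16, adjusted p = 0.0661) and Axin2 (adjusted p = 0.210) and Muc2 (adjusted p = 0.165) between KO cell types.

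No called fold change reversed. Of uncalled ones between WT cell types, Axin2 became -0.060 with RLE factors, -0.14 with upper-quartile factors, -0.059 with DESeq2, -0.67 with limma-voom and -0.93 with the replicate block, and ranged from -0.60 to 0.54 with a library left out. Vil1 became -0.83 with limma-voom and ranged from -0.72 to 0.91 with a library left out, and Krt18 from -0.96 to 2.86. Between KO cell types, Krt8 became -0.61 with limma-voom and ranged from -0.17 to 1.82, and Reg3b from -0.30 to 1.60. In the interaction, Epcam ranged from -7.86 to 0.18 and Spink4 from -7.73 to 0.81. Upper-quartile factors moved the median of all genes between WT cell types from -0.04 to -0.15, and RLE factors moved that of the interaction from 0.24 to 0.13. Of the other fold changes, 420 kept direction and call with a library left out, 24 lost a call and 2 gained one, and under other settings 366 kept them, 13 lost and 11 gained a call. Values under 3 reads (0.284 to 0.560 CPM on totals without TMM scaling) carry no order.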
